A study of Mus musculus with 6 samples.

Results

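The genes of the pyruvate dehydrogenase complex and of the enzymes that switch it on and off were read in whole brain of 7-day-old mice given ethanol or saline. The set holds 10 genes: the kinases Pdk1, Pdk2, Pdk3 and Pdk4, the phosphatase catalytic subunits Pdp1 and Pdp2, and the complex subunits Pdha1, Pdhb, Dlat and Pdhx. They were picked by name among 19938 named genes, and each had 1 probeset on the array. All 10 passed the filter on dim genes, and 14954 genes were tested in all. The mice were male C57BL/6J, an inbred strain, aged 7 days, with no genetic alteration named in the labels. The ethanol group received 20% ethanol in 0.15M saline under the skin, as 2 doses of 2.5 g/kg given 2 h apart, and the saline group received the 0.15M saline alone. Brains were taken 4 h after the first injection, and each array held RNA pooled from 3 males of different litters. There were 2 ethanol pools (arrays 2 and 4) and 4 saline pools (arrays 1, 3, 5 and 6), from 18 mice. Per the series design, each ethanol pup had a saline littermate in a saline pool, so litters are shared between the groups.

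Pyruvate dehydrogenase is the mitochondrial complex that turns pyruvate from glycolysis into acetyl-CoA, the step by which glucose carbon enters the citric acid cycle. Kinases of the PDK family phosphorylate its E1 alpha subunit and shut the complex down, and the phosphatases PDP1 and PDP2 remove the phosphate and restore activity. Adult neurons burn mostly glucose and so depend on this step, while the suckling brain also uses ketone bodies and lactate. Transcription of Pdk4, and to a lesser degree of Pdk2, is raised by fasting in several organs, and Pdk1 and Pdk3 are known targets of hypoxia signalling.

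Levels below are log2 intensities, and a change is the ethanol mean minus the saline mean on that scale, with the standard error (SE) of a limma fit over these 2 and 4 arrays. Levels of different genes are not set against each other, because each probeset has its own brightness. A gene was called when its limma p-value was under 0.05 after Benjamini-Hochberg adjustment across the 14954 genes. The 95% intervals given are per gene and carry no such adjustment. Fewer cells of a type and less RNA per cell cannot be told apart in such whole-tissue pools. All 6 neuronal markers read, such as Tubb3 and Snap25, lay above background, which is the 95th percentile of olfactory and vomeronasal receptor genes (6.21). Of 44 tested markers in 11 lists of cell types, 0 were called in limma and 6 had an unadjusted p under 0.05. Over all tested genes the shares were 0.0802% and 12.3%, so the 6 are near the background share. Of 4 pituitary markers read, only Gh and Cga lay above background, and the summed signal of the 4, as log2, was 8.93 to 9.45 on saline and 7.52 to 8.70 on ethanol arrays. The sums of 4 oligodendrocyte precursor markers (11.35 to 11.51 with saline, 11.33 to 11.34 with ethanol) and of 5 choroid plexus markers (13.11 to 13.21 and 13.08 to 13.10) were also lower on both ethanol arrays, as was that of the skeletal muscle markers given with Pdk4. The single markers of the precursor and choroid plexus lists were split, with 2 precursor markers higher and 2 lower, and 3 choroid plexus markers higher and 2 lower. For these 2 lists the lower sums are thus not a fall of each list as a whole. The tested pituitary markers, Gh (-1.52) and Cga (-1.20), and the 3 tested skeletal muscle markers were all lower, though not called. The part of these differences in the results below was not tested. Saline array 3 stood apart from the others, at 13.5 on a first principal component (40.9% of variance) where the other 5 arrays lay between -7.49 and 2.95. The ethanol arrays 2 and 4 lay at the opposite end, at -6.61 and -7.49, and saline arrays 1, 5 and 6 at -2.13, 2.95 and -0.19. The median level of saline array 3 over tested genes was 8.29, against 8.34 to 8.38 on the other 5. It was 8.34 and 8.35 on ethanol arrays 2 and 4.

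None of the 10 genes was called (0 of 10 in limma, against 0.0802% of all tested genes, or 0.0602% higher and 0.0201% lower). The share stands for 12 genes, 9 higher and 3 lower with ethanol. With arrays centred on their medians the 12 became 8, 7 higher and 1 lower, and none of the 10 genes was among them. The 3 genes of the set whose groups did not overlap were kinase genes. Pdk2 and Pdk4 were higher on both ethanol arrays than on any saline array, and Pdk3 was lower on both. For these 3 genes the unadjusted p was under 0.05, where 12.3% of all tested genes had such a p. Their groups did not overlap, as was the case for 22.6% of all tested genes (7.68% higher and 15% lower). A share of 3 in 10 without overlap is near that background and is not a result about the set. The other 7 genes overlapped between the groups, though the estimate for Pdp2 (0.13) was close in size to that for Pdk3 (-0.13).

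The RefSeq promoters (GRCm38.p6, 250 bases before to 50 after the start site) of the 3 kinase genes whose groups did not overlap are given here, 5′ to 3′ on the gene's strand, so that the letters they do and do not share can be seen. Capitals mark 6 short sequences searched on both strands. They are TGTTTAC (FoxO), CACGTG (E-box), ACGTG and GCGTG (hypoxia response), GGGCGG (GC box) and AGAACA (only a part of a glucocorticoid element). The E-box contains ACGTG on each strand, so every E-box is also counted as an ACGTG. For Pdk2, which has 2 promoter entries, the one at the outer end of the gene is printed. It lies at chr11:95041322-95041621 (minus strand).
Pdk2: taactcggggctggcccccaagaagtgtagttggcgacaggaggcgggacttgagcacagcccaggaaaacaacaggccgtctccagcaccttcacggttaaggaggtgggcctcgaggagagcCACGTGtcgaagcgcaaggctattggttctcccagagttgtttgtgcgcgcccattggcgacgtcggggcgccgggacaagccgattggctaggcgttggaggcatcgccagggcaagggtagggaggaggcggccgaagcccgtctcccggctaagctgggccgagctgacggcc
The Pdk4 promoter lies at chr6:5496229-5496528 (minus strand).
Pdk4: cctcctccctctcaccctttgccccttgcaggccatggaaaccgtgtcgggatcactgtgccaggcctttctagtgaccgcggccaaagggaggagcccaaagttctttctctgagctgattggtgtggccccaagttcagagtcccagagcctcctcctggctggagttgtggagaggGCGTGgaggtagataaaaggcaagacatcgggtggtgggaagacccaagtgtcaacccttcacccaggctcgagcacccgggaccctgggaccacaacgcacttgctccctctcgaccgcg
The Pdk3 promoter lies at chrX:93832101-93832400 (minus strand).
Pdk3: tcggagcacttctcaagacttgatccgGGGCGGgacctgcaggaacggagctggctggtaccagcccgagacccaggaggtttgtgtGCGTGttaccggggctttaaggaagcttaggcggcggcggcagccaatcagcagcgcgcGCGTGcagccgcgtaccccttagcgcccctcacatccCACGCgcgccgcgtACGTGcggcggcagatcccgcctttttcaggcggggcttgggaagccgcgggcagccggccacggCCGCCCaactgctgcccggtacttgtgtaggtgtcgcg

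The Pdk2 promoter held 1 E-box, which begins 126 bases before the start site, and none of the other searched letters apart from the ACGTG within it. The second Pdk2 entry held none of the 6. In Pdk4 the match was 1 GCGTG, 71 bases before the start, and Pdk3 held 3 of GCGTG, 1 ACGTG and 2 GC boxes. So no single searched sequence was in all 3 printed promoters, but each held at least 1 of the 2 hypoxia response sequences. Among the printed promoters ACGTG was in Pdk2 and Pdk3, and GCGTG in Pdk4 and Pdk3. At least 1 of the 2 was also in Pdk1, Pdp2, Pdha1, Pdhb and Pdhx, and neither was in Dlat. Holding one thus does not set the 3 kinase genes apart. The printed promoters of Pdk2, Pdk4 and Pdk3 were 64.7%, 60.7% and 68% G or C, against a median of 52.7% over all promoters. Over all 32851 promoters in the table, 7.15% held the E-box, 19.6% ACGTG, 32.4% GCGTG, 35.7% the GC box, 19% the glucocorticoid sequence and 3.65% the FoxO sequence. Promoter entries were found for 9 of the 10 genes, with Pdp1 as the exception. Of these 9 genes, 6 held a GC box, 6 GCGTG, 4 ACGTG and 2 an E-box (Pdk2 and Pdp2). The glucocorticoid sequence AGAACA was in 1 (the second entry of Pdk1) and the FoxO sequence in 0. A match is a description of the letters and not a binding site, and no match says only that these letters are not in this window.

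Pdk2 encodes the most widely expressed of the kinases. Its level was 9.77, 9.58, 9.76 and 9.73 on saline arrays 1, 3, 5 and 6, and 9.96 and 9.90 on ethanol arrays 2 and 4. Both ethanol arrays lay above all saline arrays, by at least 0.13, and the saline array farthest below was array 3. The saline mean was 9.71 ± 0.09 (SD, n = 4) and the ethanol mean 9.93 ± 0.04 (SD, n = 2). They differed by 0.22 ± 0.07 (SE) on the log2 scale, or 16.5% with a 95% interval of 5.11 to 29.2%. The limma adjusted p was 0.232, so Pdk2 was not called. It had the 462nd smallest unadjusted p (0.00719 in limma) of 14954 genes, and 1.56% of tested genes had a larger increase. Without saline array 3 the change was 0.18 (limma adjusted p = 0.205), and with arrays centred on their medians it was 0.23 (0.163).

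Pdk4 encodes the kinase best known for its induction by fasting and glucocorticoids. On saline arrays 1, 3, 5 and 6 it stood at 8.02, 8.06, 8.09 and 8.01, and on ethanol arrays 2 and 4 at 8.23 and 8.17. The saline arrays lay within 0.09 of each other, and both ethanol arrays were above the highest of them, by at least 0.08. The means were 8.05 ± 0.04 (SD, n = 4) and 8.20 ± 0.05 (SD, n = 2), a change of 0.16 ± 0.06 (SE; limma adjusted p = 0.313, not called), or 11.4% with a 95% interval of 1.89 to 21.9%. Here saline array 3 was not the lowest array, and the change without it was 0.16 (limma adjusted p = 0.244). Pdk4 is abundant in striated muscle, and muscle markers were read beside it. Of 5 skeletal muscle markers 3 lay above background (Acta1, Ckm and Tnnt3, all with changes below 0), while Myh3 and Myh8 were below it. Their summed signal, as log2, was 8.69 to 8.82 on saline and 8.61 to 8.67 on ethanol arrays. The part of muscle RNA in the level of Pdk4 was not tested.

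Pdk3, the X-linked kinase gene, had 9.52, 9.48, 9.49 and 9.47 on saline arrays 1, 3, 5 and 6 and 9.40 and 9.31 on ethanol arrays 2 and 4. It was the one kinase gene with both ethanol arrays below all saline arrays, and its saline arrays lay closest together of the 10 genes (SD of 0.02, against a median of 0.07 over all tested genes). The means were 9.49 ± 0.02 (SD, n = 4) with saline and 9.36 ± 0.06 (SD, n = 2) with ethanol, and the change was -0.13 ± 0.06 (SE; limma adjusted p = 0.385, not called), or -8.87% with a 95% interval of -16.6 to -0.38%. The interval comes close to 0, and 11.7% of tested genes had a larger decrease. The estimate was -0.18 with ethanol array 4 alone and -0.09 with ethanol array 2 alone, so its size depended on which ethanol array was read.

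Pdk1, a hypoxia-induced kinase gene, did not separate the groups. Saline arrays 1, 3, 5 and 6 had 9.16, 9.02, 9.19 and 9.11, and ethanol arrays 2 and 4 had 9.16 and 9.18. Both ethanol arrays fell within the saline range. The change was 0.05 ± 0.06 (SE; limma adjusted p = 0.811), and the 95% interval in percent runs from -6.18 to 13.9.

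**Figure D1:**
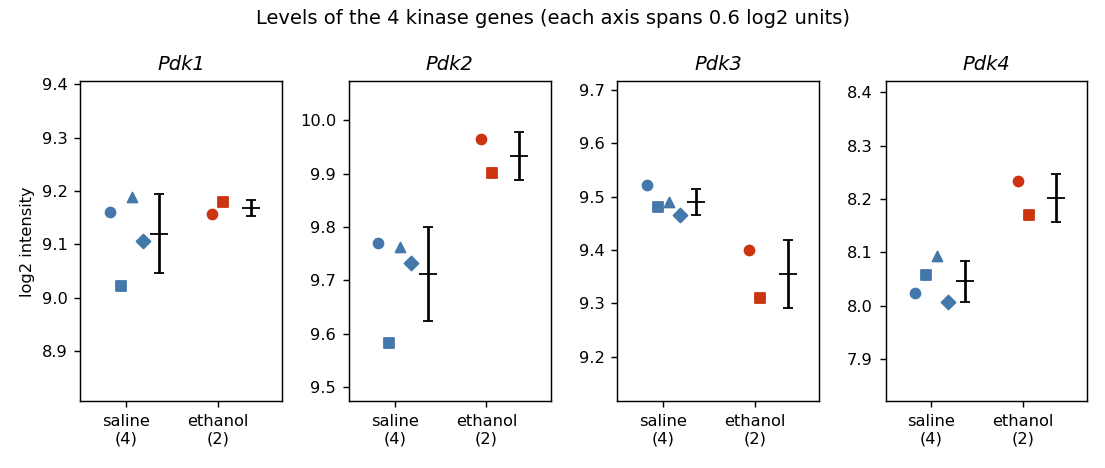
Log2 intensity of Pdk1, Pdk2, Pdk3 and Pdk4 on each array, with saline (blue, 4 arrays) and ethanol (red, 2 arrays) side by side; circles, squares, triangles and diamonds are saline arrays 1, 3, 5 and 6, red circles and squares are ethanol arrays 2 and 4, and the black marks are group means with SD. Both ethanol arrays lie above all saline arrays for Pdk2 and Pdk4 and below them for Pdk3, while for Pdk1 they lie within the saline range.

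Because Pdk2 and Pdk3 differed in opposite directions, their difference within each array was also read. This pair was chosen after its values were seen. With both ethanol arrays above all saline arrays for Pdk2 and Pdk4 and below them for Pdk3, differences from Pdk3 must separate the groups. The values are therefore a description without a test. Relative to the saline mean, Pdk2 minus Pdk3 was 0.03, -0.12, 0.05 and 0.04 on saline arrays 1, 3, 5 and 6, and 0.34 and 0.37 on ethanol arrays 2 and 4. The ethanol arrays lay within 0.03 of each other on this difference and 0.09 apart on Pdk3 itself. The corresponding ethanol values of Pdk4 minus Pdk3 were 0.28 and 0.30, with saline arrays between -0.06 and 0.05. Pdk2 minus Pdk4, the 2 kinase genes that were both higher, had 0.06 and 0.07 on the ethanol arrays, inside the saline range of -0.14 to 0.08.

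The phosphatase genes oppose the kinases in function. Pdp1, the calcium-stimulated phosphatase of brain and muscle, had 11.06, 11.04, 11.14 and 11.11 on saline arrays 1, 3, 5 and 6 and 11.10 and 11.07 on ethanol arrays 2 and 4. The ethanol arrays fell inside the saline range, and the mean was 11.09 in each group. Its change was -0.0018 ± 0.06 (SE; limma adjusted p = 0.995), with a 95% interval of -8.70 to 9.27%. It was the smallest change of the 10 genes.

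Pdp2, the phosphatase isoform that is less sensitive to calcium, had the signal nearest to background and the largest spread among saline arrays. It stood at 6.71, 6.32, 6.55 and 6.41 on saline arrays 1, 3, 5 and 6, and at 6.69 and 6.57 on ethanol arrays 2 and 4. Saline array 1 lay above both ethanol arrays and saline array 3 far below them, so the groups overlapped. The change was 0.13 ± 0.10 (SE; limma adjusted p = 0.613), and it was 0.07 without saline array 3 and 0.20 without saline array 1. At this spread (saline SD of 0.17) the 95% interval of -5.27 to 26.2% includes changes as large as that of Pdk2.

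**Figure D2:**
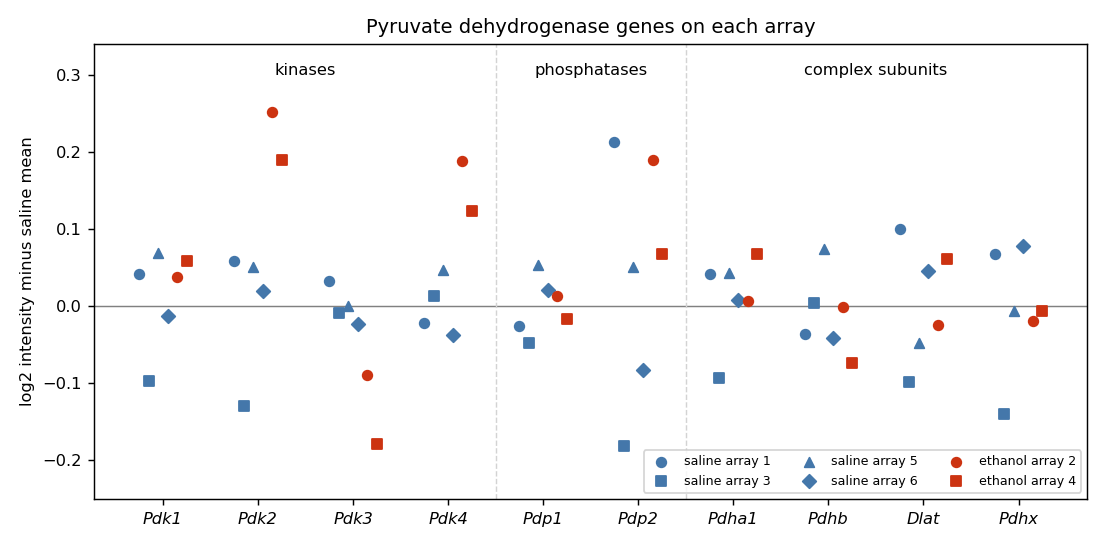
Log2 intensity of each of the 10 genes on each array minus that gene's saline mean (vertical axis, log2 units), with saline arrays in blue, ethanol arrays in red and a symbol for each array. Both ethanol arrays lie beyond all saline arrays for Pdk2, Pdk4 and Pdk3, at most 1 of them does so for the other 7 genes (ethanol array 4 for Pdha1 and Pdhb), and saline array 3 (blue squares) is the lowest array for 7 of the 10 genes.

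The 4 structural genes overlapped between the groups throughout. Pdha1, the X-linked gene of the E1 alpha subunit that the kinases phosphorylate, had 10.44, 10.31, 10.44 and 10.41 on saline arrays 1, 3, 5 and 6 and 10.41 and 10.47 on ethanol arrays 2 and 4. The change was 0.04 ± 0.06 (SE; limma adjusted p = 0.859). Ethanol array 4 was the highest of the 6 arrays and saline array 3 the lowest, but ethanol array 2 lay among the saline arrays.

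Pdhb encodes the E1 beta subunit, the partner of Pdha1 in the decarboxylating enzyme. It stood at 8.37, 8.41, 8.47 and 8.36 on saline arrays 1, 3, 5 and 6, and at 8.40 and 8.33 on ethanol arrays 2 and 4. Ethanol array 4 was the lowest of the 6 here, and the change was -0.04 ± 0.06 (SE; limma adjusted p = 0.857). The 2 E1 genes thus had estimates of like size and opposite sign, both smaller than their SE.

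Dlat encodes the acetyltransferase core of the complex, to which the kinases also dock. Saline arrays 1, 3, 5 and 6 had 10.10, 9.90, 9.95 and 10.05, and ethanol arrays 2 and 4 had 9.97 and 10.06. Both ethanol arrays lay inside the saline range, and the change was 0.02 ± 0.07 (SE; limma adjusted p = 0.945). Pdhx, which encodes the protein that tethers the E3 enzyme to that core, had 8.11, 7.90, 8.04 and 8.12 on the same saline arrays and 8.02 and 8.04 on the ethanol arrays. Its ethanol arrays nearly coincided, within 0.01 of each other and within the saline range, and the change was -0.01 ± 0.07 (SE; limma adjusted p = 0.962). Over the 4 structural genes the lowest bound of a 95% interval was -11.2% (Pdhb, -11.2 to 6.98%) and the highest 12.9% (Pdha1, -6.71 to 12.9%). For each gene, changes within its own interval are not excluded.

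**Figure D3:**
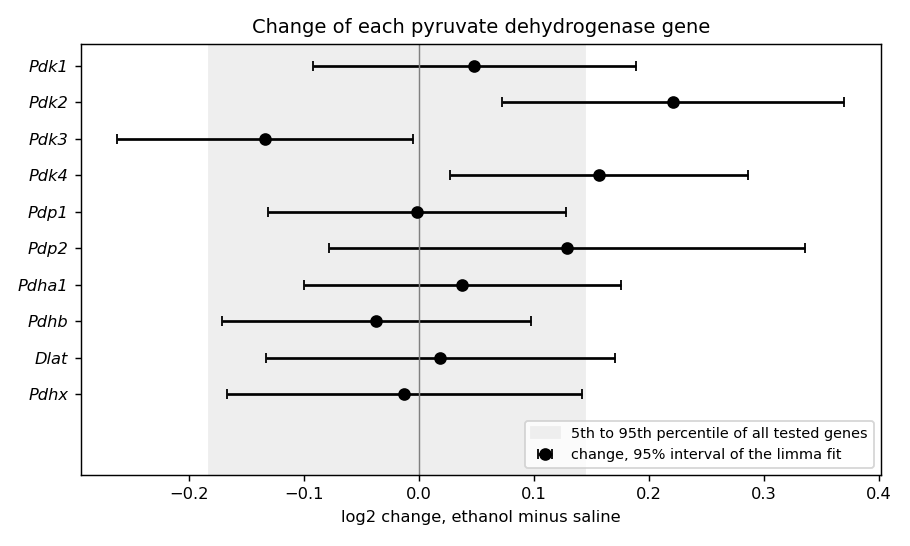
Log2 change (ethanol minus saline, horizontal axis) of each of the 10 genes with the 95% interval of the limma fit; the grey band spans the 5th to 95th percentile of the changes of all tested genes, -0.18 to 0.14. Pdk2 (0.22) and Pdk4 (0.16) lie beyond the right edge of the band with intervals above 0. Pdk3 (-0.13) lies inside the band, left of 0, and the 4 structural genes lie close to 0.

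Across the 10 genes the median change was 0.03, with 6 above 0 and 4 below, beside a median of -0.02 over all tested genes, of which 6185 were above 0 and 8769 below. For 6 of the 10 the absolute change was smaller than the median absolute change of all tested genes (0.06). The smallest absolute change among the 12 called genes was 0.47, larger than the change of any gene of the set. Saline array 3 gave the lowest value for 7 of the 10 genes and for 36.9% of all tested genes.

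Around the complex, 7 lists of related genes held 94 genes, of which 81 were tested and 0 were called in limma. An unadjusted p under 0.05 was found for 2 of the 81 with higher and 6 with lower levels (3.85% and 8.45% of all tested genes). The lists cover the rest of the complex, the supply of pyruvate, cofactors, sister complexes, the citric acid cycle, factors known to regulate Pdk transcription, and alternative fuels. The genes named below are the 3 of each list with the smallest unadjusted p, whatever their direction.

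The complex has further proteins outside the 10 genes. Dld, the E3 enzyme shared with the sister complexes, had a change of -0.08 ± 0.07 (SE; limma adjusted p = 0.697), and Pdpr, the regulatory subunit of the phosphatase, 0.10 ± 0.09 (0.696). Without saline array 3 the change of Pdpr was 0.02. Neither was called, and the testis-type Pdha2 was too dim to test.

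Of 15 tested genes of pyruvate and lactate supply, 10 were lower and 5 higher, with a median change of -0.06. The mitochondrial malic enzyme Me2, which makes pyruvate from malate, stood at 9.26, 9.08, 9.15 and 9.18 on saline arrays 1, 3, 5 and 6 and at 8.91 and 9.07 on ethanol arrays 2 and 4. The ethanol arrays were below the saline arrays by as little as 0.02, and the change was -0.18 ± 0.07 (SE; limma adjusted p = 0.327). It was -0.10 without ethanol array 2 and -0.26 without ethanol array 4. The neuronal monocarboxylate transporter Slc16a7 had -0.09 ± 0.06 (limma adjusted p = 0.583). The lactate dehydrogenase subunit Ldhb had 0.12 ± 0.07 (0.548), but its second probeset gave -0.11, so no direction can be given for it. None of the list was called in limma, and 1 had an unadjusted p under 0.05.

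Among 8 tested genes for the cofactors thiamine and lipoate, 7 estimates were below 0 with a median of -0.01. Lipt2, which starts lipoate synthesis, had -0.11 ± 0.09 (SE; limma adjusted p = 0.667), and the iron-sulphur cluster genes Nfu1 and Iba57 had -0.07 ± 0.07 (0.732) and, near background, -0.10 ± 0.12 (0.773). The ethanol arrays disagreed on each of these: the sign of all 3 turned when 1 of the ethanol arrays was left out. This list held 0 called genes and 0 with an unadjusted p under 0.05 in limma.

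The sister complexes that oxidise other 2-oxoacids had a median of -0.0044 over 9 tested genes. Dbt, the core subunit of the branched-chain complex and the counterpart of Dlat there, was at 9.33, 9.29, 9.37 and 9.35 on saline arrays 1, 3, 5 and 6 and at 9.14 and 9.18 on ethanol arrays 2 and 4. Both ethanol arrays lay below all saline arrays, by at least 0.11, a change of -0.18 ± 0.06 (SE; limma adjusted p = 0.247, not called). Ppm1k, the phosphatase that activates the branched-chain complex as PDP1 does pyruvate dehydrogenase, had 0.20 ± 0.08 (limma adjusted p = 0.357), with ethanol array 2 inside the saline range. Its change was 0.07 without ethanol array 4 and 0.33 without ethanol array 2. Its opposing kinase Bckdk had -0.0044 ± 0.07 (limma adjusted p = 0.989) and was added after its value was seen. Bckdha, the counterpart of Pdha1, had 0.12 ± 0.07 (limma adjusted p = 0.512).

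In the citric acid cycle, 12 of 15 tested genes were below 0, with a median of -0.04. Fh1, fumarate hydratase, had 11.23, 11.31, 11.23 and 11.15 on saline arrays 1, 3, 5 and 6 and 11.06 and 11.02 on ethanol arrays 2 and 4. Here saline array 3 was the highest and the ethanol arrays the lowest, with a change of -0.19 ± 0.06 (SE; limma adjusted p = 0.249, not called). Idh3a, the catalytic subunit of the NAD-linked isocitrate dehydrogenase, had -0.13 ± 0.06 (limma adjusted p = 0.423), and Sdhd, a membrane anchor of succinate dehydrogenase, 0.10 ± 0.06 (0.577). No gene of the list was called in limma, and 1 had an unadjusted p under 0.05.

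Of the factors known to act on Pdk genes, 17 were tested, with a median of 0.0033. Foxo3, a FoxO factor held inactive by insulin signalling, stood at 8.44, 8.20, 8.40 and 8.45 on saline arrays 1, 3, 5 and 6 and at 8.72 and 8.86 on ethanol arrays 2 and 4. The ethanol arrays were above all saline arrays by at least 0.27, and the change was 0.42 ± 0.08 (SE; limma adjusted p = 0.0723, not called). It was called with array weights (limma adjusted p = 0.0450), after leaving out the dimmest 50% of genes (0.0437), and with a variance prior that follows the mean level (0.0440), and over all alternatives its adjusted p ran from 0.0437 to 0.456. Myc had -0.36 ± 0.11 (limma adjusted p = 0.232), and Nr3c1, the glucocorticoid receptor gene, -0.15 ± 0.06 (0.324). Hif1a, which drives Pdk1 in hypoxia, had -0.10 ± 0.06 (limma adjusted p = 0.531). Ppara, which drives Pdk4 in liver, lay near background at 0.04 ± 0.06 (0.854), and both were added after their values were seen.

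Genes for the use of fatty acids, ketone bodies and acetate had a median of 0.05 over 15 tested, 10 of them above 0. Bdh1, which interconverts the ketone bodies, was at 10.09, 9.99, 9.99 and 10.08 on saline arrays 1, 3, 5 and 6 and at 9.90 and 9.89 on ethanol arrays 2 and 4. Both ethanol arrays lay below all saline arrays, a change of -0.14 ± 0.06 (SE; limma adjusted p = 0.365, not called). Cpt2, of the mitochondrial import of fatty acids, had 0.12 ± 0.06 (limma adjusted p = 0.434), and Angptl4, a fasting-induced lipase inhibitor, 0.12 ± 0.08 (0.592). No gene of the list was called in limma, and 1 had an unadjusted p under 0.05.

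**Figure D4:**
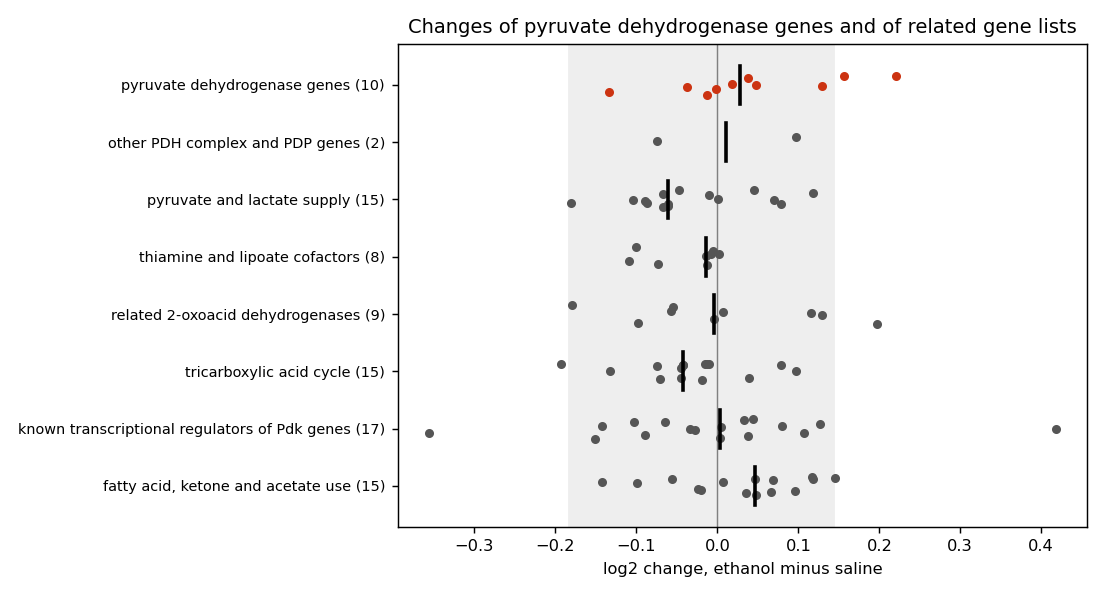
Log2 change (ethanol minus saline, horizontal axis) of each tested gene in the set of 10 (red) and in the 7 related lists (grey), 1 point per gene, with the vertical bar at each list's median and the number of tested genes in brackets; the grey band spans the 5th to 95th percentile of all tested genes. The list medians lie between -0.06 and 0.05, and the points farthest from 0 are Foxo3 at 0.42 and Myc at -0.36.

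The pattern of Pdk2 over the arrays, with both ethanol arrays high and saline array 3 low, was compared with that of all other tested genes, each centred on its own mean. The nearest was Wdr45, an autophagy gene, with a root mean square difference of 0.0188 log2 units over the 6 arrays, followed by the zinc finger gene Zik1 (0.0193) and the synaptic adhesion gene Lrrtm2 (0.0199). Their changes were 0.22, 0.25 and 0.19, and none of the 3 was called (limma adjusted p of 0.238, 0.190 and 0.294). With 6 arrays and 14954 genes some close matches arise among any genes, so the likeness is a description. Saline array 3 and the ethanol arrays also lay at opposite ends of the first principal component of all tested genes.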

How the data were processed

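The deposited table holds 35556 probesets with 1 value on each of the 6 arrays. The values were taken as log2 intensities from their range (4.10 to 14.9), since the deposited table states no log base. The submitters' processing notes name Partek 6.6. How the authors corrected, normalized and summarised the log2 values is not given in the sources used here, and a shift between arrays could move changes of the size reported.

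The platform annotation gave 21789 probesets 1 gene symbol, 1621 several (not used) and 12146 none here. Of the probesets with 1 symbol, 21698 matched a current gene record, which gave the symbol used. A gene was read from its probeset with the highest mean, and the dimmest 25% of genes were left out. limma 3.58.1 (lmFit, eBayes) in R 4.3.3 fitted treatment over all 6 arrays, two-sided, with 4 residual and 8.10 prior degrees of freedom; the script was tested on simulated data. Replicates are pools of separate animals. Litters are shared between the groups, but which pools share them is not in the labels, so the fit is unpaired and its SE and p-values include litter differences; their precision is limited by the number of arrays.

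The genes, lists and tests were chosen with earlier results of these data known. The genes named are the 10, up to 3 per related list by unadjusted p, and the 3 nearest in pattern to the leading one; Bckdk, Hif1a and Ppara were added after their values were seen. Marker lists served to check the tissue and, for skeletal muscle, Pdk4. Alternatives were the dim filter, the handling of probesets, 2 scalings, array weights, 2 variance priors and leaving out each array.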

Additional observations from a re-analysis of the deposited data

How the results depend on the processing

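None of the 10 genes was called in limma under any of the 15 alternatives, and 139 of the 149 values kept their direction. Pdp2 has no value with the dimmest 50% of genes left out. The other 10 values, of Pdp1, Dlat and Pdhx, turned sign around 0. Pdp1 was 0.0052 with arrays centred on their medians and 0.013 with quantile normalization, and -0.018 to 0.016 when 1 array was left out. Dlat was -0.0038 with array weights and -0.025 to 0.062 when 1 array was left out, and Pdhx -0.060 to 0.013. With 1 array left out Pdk2 kept 0.18 to 0.25, Pdk4 0.12 to 0.19 and Pdk3 -0.18 to -0.09. Over all genes, 56 were called with array weights (21 higher, 35 lower), 52 with the dimmest 50% left out and 43 with a variance prior that follows the mean level, against 12 here, and 4 to 16 when 1 array was left out, with 4 without ethanol array 4. The cause was not tested.

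Of the 343 values of the 23 genes named from the lists, 12 turned sign. Bckdk was 0.0026 with arrays centred on their medians and -0.046 to 0.037 when 1 array was left out. Nfu1 was 0.11 on its second probeset, 0.019 as the mean of both and -0.16 to 0.01 when 1 array was left out, and Ldhb was -0.11 on its second probeset. With 1 array left out, Angptl4 ran from -0.024 to 0.26, Dld from -0.17 to 0.02, Iba57 from -0.31 to 0.11 and Lipt2 from -0.28 to 0.066. Leaving out 1 array also moved Slc16a7 (-0.13 to -0.04), Ldhb (0.07 to 0.15), Idh3a (-0.18 to -0.09), Sdhd (0.06 to 0.13), Bckdha (0.08 to 0.14) and Ppara (0.0039 to 0.073), none of them called. No paired analysis was possible because the labels give ethanol and saline pools no replicate number in common, although pups of the groups were littermates.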
